A study of Mus musculus with 6 samples.

Results

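Histone deacetylases (HDACs) remove acetyl groups from lysines of histones and of other proteins, and their transcripts were examined in muscle stem cells (MuSCs), which regenerate skeletal muscle, after deletion in Taf4a. Rows were taken by gene symbol for 10 zinc-dependent deacetylases (Hdac1, Hdac2, Hdac3, Hdac4, Hdac5, Hdac6, Hdac7, Hdac8, Hdac9 and Hdac11) out of 22081 genes in the expression table, and all 10 were among the 18562 genes with a mean of at least 5 normalized counts that were tested. The study profiled total RNA of freshly isolated, sorted MuSCs in 6 libraries, 3 from control and 3 from Taf4asKO mice, which addresses how the cells' transcripts differ when TAF4A, a subunit of the general transcription factor TFIID, is disrupted. Taf4asKO mice carried Pax7CE, a tamoxifen-inducible Cre recombinase expressed from Pax7, together with Taf4a fl/fl, and were given tamoxifen. The control libraries are titled WT and labelled control. The study describes its controls in general as Taf4a fl/fl littermates with or without the Pax7CE allele, in which case the floxed allele was common to both groups. Whether the control mice of these libraries carried the floxed or Pax7CE alleles or received tamoxifen is not given in the sources used here. The mice were adults on a C57BL/6 background, and the labels give no age or sex for single samples. Recombination is limited to cells that express Pax7, and a cell of another type in the sort would retain the intact gene.

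The deacetylases fall into classes with different partners. Class I enzymes (Hdac1, Hdac2, Hdac3 and Hdac8) are mostly nuclear, and Hdac1, Hdac2 and Hdac3 work as the catalytic subunits of corepressor complexes. Class IIa proteins (Hdac4, Hdac5, Hdac7 and Hdac9) have little deacetylase activity of their own, shuttle between nucleus and cytoplasm, and in muscle are best known for binding and repressing MEF2 transcription factors until kinases phosphorylate them and 14-3-3 proteins hold them in the cytoplasm. Class IIb is represented here by Hdac6, a cytoplasmic tubulin deacetylase, and class IV consists of Hdac11, which efficiently removes long fatty acyl groups from lysine.

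The study located TAF4A at promoters with binding sites of NF-Y and SP1, so upstream sequence is shown for the members on which the comparison turned, Hdac11 and Hdac9, and for a pair of steady members whose windows held both motifs, Hdac4 and Hdac6. All are from the RefSeq promoter table (GRCm38.p6, the assembly known as mm10), run 5′ to 3′ on the strand of the gene, and stop before the annotated transcripts, which leaves 100 bases for Hdac11 (chr6:91156565-91156664, plus strand) and 250 for Hdac9 (chr12:34528890-34529139, minus strand), Hdac4 (chr1:92180342-92180591, minus strand) and Hdac6 (chrX:7947890-7948139, minus strand). Capitals mark CCAAT, the core of the NF-Y site, or its complement ATTGG, and GGGCGG, the core of the SP1 site, or its complement CCGCCC.
Hdac11: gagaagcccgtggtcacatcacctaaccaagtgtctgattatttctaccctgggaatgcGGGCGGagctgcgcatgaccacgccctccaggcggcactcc
Hdac9: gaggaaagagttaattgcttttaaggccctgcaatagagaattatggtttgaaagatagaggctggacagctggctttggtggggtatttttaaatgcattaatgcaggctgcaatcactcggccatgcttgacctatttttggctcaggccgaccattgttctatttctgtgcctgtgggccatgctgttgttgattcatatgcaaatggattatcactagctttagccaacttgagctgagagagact
Hdac4: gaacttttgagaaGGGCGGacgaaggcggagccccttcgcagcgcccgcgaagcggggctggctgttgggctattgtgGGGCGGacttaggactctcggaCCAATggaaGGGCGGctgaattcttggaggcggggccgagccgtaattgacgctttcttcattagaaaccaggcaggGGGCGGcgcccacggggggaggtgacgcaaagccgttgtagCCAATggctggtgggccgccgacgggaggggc
Hdac6: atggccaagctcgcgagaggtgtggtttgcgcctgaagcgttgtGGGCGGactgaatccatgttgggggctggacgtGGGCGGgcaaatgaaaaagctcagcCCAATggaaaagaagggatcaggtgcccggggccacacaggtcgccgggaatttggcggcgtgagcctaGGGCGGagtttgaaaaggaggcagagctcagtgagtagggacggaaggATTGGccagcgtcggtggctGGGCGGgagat
The table held windows for 8 of the 10 members, Hdac1 and Hdac3 being the others. A single window per gene was searched, that whose start lay nearest the gene's start in the expression table. Over this whole window of 300 bases (250 before and 50 after the start, both strands), CCAAT was found for 5 of the 8 (Hdac4, Hdac5, Hdac6, Hdac8 and Hdac11). GGGCGG was found for 5 of the 8 (Hdac2, Hdac4, Hdac5, Hdac6 and Hdac11). Among all 32851 windows of that length the shares were 37.4% for CCAAT, 35.7% for GGGCGG and 12.8% for both, while 4 of the 8 members had both. These shares are per window over all starts. Members are counted per gene from a single window, so the figures are not matched. Matches of the 2 motifs can share bases but did not do so in any window searched, whereas CCAAT and ATTGG overlapped each other in the Hdac8 window. The Hdac11 window held its CCAAT match 150 bases before the RefSeq start, inside the GENCODE M21 gene and therefore not printed. Hdac7 and Hdac9 had neither motif in the window searched, and their other windows (of 4 and 2 in all) were not searched. A match is a description of the letters and not evidence of binding.

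The 6 libraries held between 12338676 and 14551732 normalized counts each. Across genes, Pearson's r of log2 values was 0.961 to 0.984 for libraries of the same group and 0.945 to 0.966 for libraries of different groups. Transcripts of the targeted gene, Taf4 (ENSMUSG00000039117, formerly Taf4a), totalled 613, 534 and 478 normalized counts in controls and 631, 565 and 574 in Taf4asKO, which overlapped (log2 fold change 0.13, SE 0.12, limma with Benjamini-Hochberg adjustment, adjusted p = 0.524). The deletion removes only a pair of exons and these are totals over the gene, with an exonic overlap with 4921531C22Rik on the opposite strand, so they do not check the labels. All 10 MuSC markers were present, with summed levels of 49952 to 52739 in controls and 51652 to 57862 in Taf4asKO. Of the 10, 3 were lower in Taf4asKO by limma (Myf5, Itga7 and Cdh15) and 3 higher (Vcam1, Sdc4 and Msc). According to the study's methods the sort removed cells positive for CD45, CD31 or SCA1 and kept those positive for integrin-α7, or kept cells by Pax7-zsGreen, and its reanalysis of sorted cells found a population that was enriched but not pure. Markers of other cells were also present: Schwann cell markers (5 of 5 genes, 4 of them higher in Taf4asKO by limma) summed to 1178 to 2890 in controls and 3480 to 4266 in Taf4asKO, mural cell markers (5 of 5, 2 higher, with negative log2 fold changes of -0.75 for Tagln and -0.31 for Acta2 that did not pass) to 8626 to 13534 and 13436 to 15711, and endothelial markers (5 of 5, of which 3 had an unadjusted p under 0.05 by limma) to 188 to 461 and 476 to 785. With the block, Pdgfrb among the mural, Cdh5 and Kdr among the endothelial and Lyz2 among the immune markers also passed as higher. Fibro-adipogenic markers (6 of 6) summed to 55576 to 81770 and 33832 to 56133, but moved in opposite directions: Col3a1 and Dpt were lower by limma, whereas Pdgfra, Dcn, Col1a1 and Lum had positive log2 fold changes that passed with the block, and the list's median was 0.83. The sums were, for myofibre markers (6 of 6), 1193 to 3772 and 2141 to 2712, and for immune markers 400 to 514 and 651 to 905 over 3 of 5 genes, with Ptprc and Adgre1 not analysed here. Within the immune list the mean of Lyz2 was 257 in controls and 559 in Taf4asKO, that of Cd68 198 and 180, and that of Cd74, which was lower by limma, 9.67 and 1.33. In RNA of a sorted population, fewer cells of a type and less RNA per cell cannot be told apart. The labels describe separate samples without naming animals, so p-values measure the spread between these samples.

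Of the 10 deacetylases, 1 passed the threshold (limma, Benjamini-Hochberg adjusted p under 0.05 over all genes tested and at least 1.3-fold in either direction), beside 12.6% of all genes tested. It was Hdac11, which was 1.91-fold lower in Taf4asKO. With replicate number as a block, 2 of 10 passed, beside 18.1% of all genes, the second being Hdac9, which was higher. In the remaining 8 members the log2 fold changes lay between -0.22 and 0.23, with 95% confidence intervals reaching from 1.46-fold lower to 1.39-fold higher. The median over the 10 members was -0.017, with 5 positive and 5 negative values, and that of all genes tested was 0.0040. Control and Taf4asKO values did not overlap in 3 of 10 members (Hdac3 and Hdac9 higher, Hdac11 lower), beside 33.0% of all genes.

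**Figure D1:**
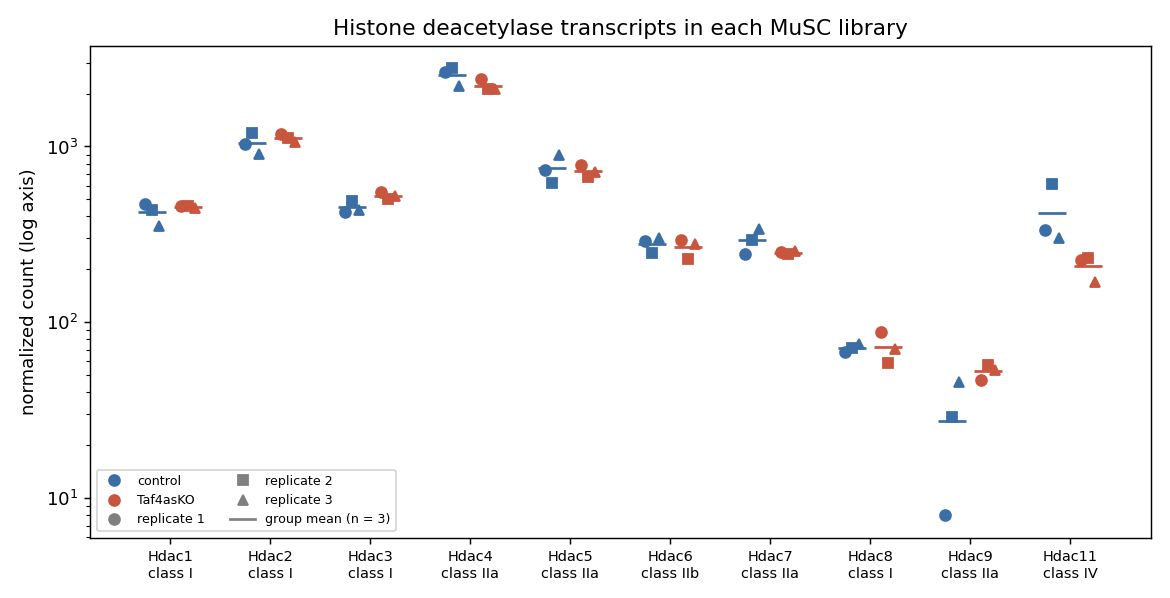
Normalized counts of the 10 deacetylases in each library, on a log axis, with control and Taf4asKO points side by side and a bar at each group mean (n = 3). Hdac2 and Hdac4 lie highest and Hdac9 lowest, and control and Taf4asKO points do not overlap for Hdac3, Hdac9 and Hdac11.

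Among class I genes, all 4 differences were positive in the fit given here, but the signs of Hdac1, Hdac2 and Hdac8 turned in some alternative fits. The threshold was passed by 0 of 4 by limma and 0 of 4 by limma-voom. An unadjusted p under 0.05 by limma on log2 values was reached by 0 of 4, beside 28.8% of all genes tested. Hdac1 (ENSMUSG00000028800), a catalytic subunit of the Sin3, NuRD, CoREST and MiDAC complexes, had 472, 438 and 355 normalized counts in controls and 461, 457 and 446 in Taf4asKO. Its log2 fold change was 0.12 (SE 0.13, 95% confidence interval -0.17 to 0.40, adjusted p = 0.587, limma). The Taf4asKO values lay inside the control range.
Its close paralog Hdac2 (ENSMUSG00000019777), a catalytic subunit of the same complexes, had 1035, 1192 and 903 normalized counts in controls and 1177, 1113 and 1056 in Taf4asKO, again inside the control range. The log2 fold change was 0.10 (SE 0.12, adjusted p = 0.606, limma). The log2 ratio of Hdac1 to Hdac2 was -1.31 ± 0.159 (SD, n = 3) in controls and -1.29 ± 0.0549 in Taf4asKO, a difference of 0.015 (exact permutation test, two-sided, p = 1).

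Hdac3 (ENSMUSG00000024454) is the catalytic subunit of the NCoR corepressor complex. Its values were 423, 492 and 435 normalized counts in controls and 549, 503 and 524 in Taf4asKO. Every Taf4asKO value was above every control value, which 16.6% of all genes tested also showed in that direction. The log2 fold change of 0.23 (SE 0.11, 95% confidence interval -0.020 to 0.47) did not pass (adjusted p = 0.209, limma). Hdac8 (ENSMUSG00000067567), a class I enzyme that acts on the cohesin subunit SMC3 and is not a stable member of the large corepressor complexes, had 68, 72 and 75 normalized counts in controls and 88, 59 and 71 in Taf4asKO. The Taf4asKO values surrounded those of the controls, with a log2 fold change of 0.0021 (SE 0.21, 95% confidence interval -0.46 to 0.47). The ratio of Hdac3 to Hdac8 differed by 0.22 on the log2 scale (exact permutation test, two-sided, p = 0.2).

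In class IIa, 0 of 4 genes passed by limma on log2 values and 0 of 4 by limma-voom, while 1 of 4, Hdac9, had an unadjusted p under 0.05 by each. The most abundant was Hdac4 (ENSMUSG00000026313), known in muscle as a repressor of MEF2 targets that accumulates after denervation. It had 2666, 2782 and 2220 normalized counts in controls and 2418, 2119 and 2110 in Taf4asKO. The lowest control lay among the Taf4asKO values, and the log2 fold change was -0.20 (SE 0.11, 95% confidence interval -0.45 to 0.046, adjusted p = 0.264, limma). Hdac5 (ENSMUSG00000008855), the closest class IIa relative of Hdac4 in role, had 733, 622 and 900 normalized counts in controls and 784, 674 and 720 in Taf4asKO, all inside the control range. Its log2 fold change was -0.036 (SE 0.14, adjusted p = 0.898, limma). The ratio of Hdac4 to Hdac5 differed by -0.17 on the log2 scale (exact permutation test, two-sided, p = 0.7). Hdac7 (ENSMUSG00000022475), the class IIa member best known from endothelial cells and thymocytes, had 244, 296 and 340 normalized counts in controls and 251, 244 and 253 in Taf4asKO. The Taf4asKO values were close together at the lower end of the control range, and the log2 fold change was -0.22 (SE 0.14, 95% confidence interval -0.54 to 0.10, adjusted p = 0.346, limma).

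Hdac9 (ENSMUSG00000004698, chromosome 12, 34047580 to 34528874 in the table, minus strand, mm10), which also encodes a short form without the catalytic domain that binds MEF2, was the least abundant member. It had 8, 29 and 46 normalized counts in controls and 47, 57 and 54 in Taf4asKO, with means of 27.7 ± 19.0 and 52.7 ± 5.13 (SD, n = 3). The groups were separated by a single normalized count, 46 against 47, and control replicate 1 stood far below the other libraries. The log2 fold change was 1.20 (SE 0.51, 95% confidence interval 0.063 to 2.33) with adjusted p = 0.153 by limma without a block and adjusted p = 0.0482 with replicate number as a block. Of all genes tested, 5.93% passed as higher without the block and 9.09% with it. Without control replicate 1 it was 0.51 (adjusted p = 0.309). Over all 17 settings tried the adjusted p ranged from 0.048 to 0.333 and the gene passed in 1. Control replicate 1 was also the lowest library in the summed Schwann (1178), mural (8626), endothelial (188), immune (400) and myofibre (1193) markers. The 3 Taf4asKO libraries were above every control in the Schwann, endothelial and immune sums (the last through Lyz2), as they were for Hdac9. The fibro-adipogenic sum, whose genes moved in opposite directions, was instead lowest in Taf4asKO replicate 1 (33832, against 55576 in control replicate 1). Cells positive for CD31 or CD45, markers of endothelial and immune cells, were to be removed by the sort, which did not yield a pure population, and Cdh5, Kdr, Pdgfrb and Lyz2 passed as higher with the same block as Hdac9, whereas the log2 fold changes of the mural markers Tagln and Acta2 were negative. The part of any other cell type in the Hdac9 difference was not tested.

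Relative to Hdac7, Hdac9 was higher in every Taf4asKO library: the Hdac7 to Hdac9 ratio was 27.2, 9.90 and 7.26 in controls and 5.25, 4.22 and 4.62 in Taf4asKO. The log2 ratio differed by -1.42 (exact permutation test, two-sided, p = 0.1, which is the smallest that 3 against 3 libraries allow, and 0.4 after Benjamini-Hochberg adjustment over the 4 pairs of members compared). Without control replicate 1 the difference was -0.86. For the other 3 pairs the adjusted exact p was 0.4, 0.933 and 1.

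Hdac6 (ENSMUSG00000031161) also binds ubiquitin and serves in aggresome formation. It had 290, 248 and 301 normalized counts in controls and 296, 229 and 278 in Taf4asKO. The groups overlapped, and the log2 fold change was -0.066 (SE 0.14, 95% confidence interval -0.39 to 0.25, adjusted p = 0.804, limma).

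Hdac11 (ENSMUSG00000034245, chromosome 6, 91156665 to 91174692, plus strand, mm10), the single class IV gene, had 334, 613 and 303 normalized counts in controls and 225, 233 and 169 in Taf4asKO. All 3 Taf4asKO libraries were below every control, as for 16.4% of all genes tested, while control replicate 2 was far above the other controls. Controls averaged 417 ± 171 and Taf4asKO 209 ± 34.9 (SD, n = 3). On the log2 scale the difference was -0.93 (SE 0.25, 95% confidence interval -1.48 to -0.38, adjusted p = 0.0345, limma). Of all genes tested 6.71% passed in that direction, 8.98% with the block. The gene passed in 14 of 17 settings, with adjusted p from 0.0021 to 0.137. It did not pass without Taf4asKO replicate 1, 2 or 3 (adjusted p = 0.0836, 0.0828 and 0.137, log2 fold changes -0.99, -1.02 and -0.79). Without control replicate 2 the log2 fold change was -0.62 and it still passed (adjusted p = 0.0342, limma). Control replicate 2 was also the library with the highest summed myofibre markers (3772, against 1193 to 2712 in the others). The Taf4asKO sums (2141 to 2712) lay above those of control replicates 1 and 3 (1193 and 1797), unlike the Hdac11 values. Over the 6 libraries Pearson's r of the log2 values of Hdac11 and that sum was 0.224. The part of myofibre RNA in the Hdac11 value was not tested. Exons of Hdac11 overlap Gm44002 by 594 bases and Gm14573 by 96 bases on the opposite strand, and the strand setting of the authors' counting is not given in the sources used here. The same limit holds for Hdac4, which shares 3536 exonic bases with Gm26720 (mean of 98 normalized counts) on the opposite strand, and for Hdac7, which shares 29 with Slc48a1, while Hdac5 shares 111 with Mir8101 on its own strand.

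**Figure D2:**
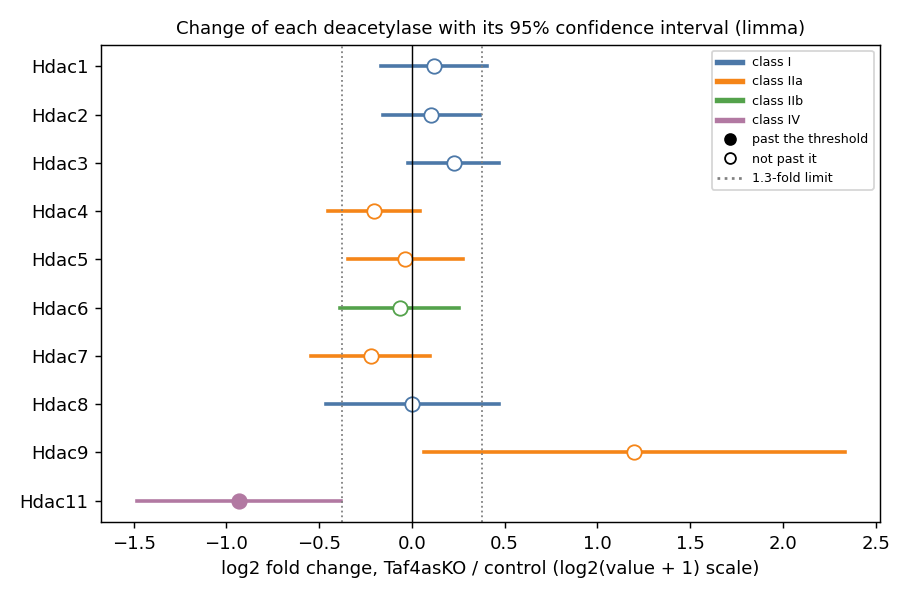
Log2 fold change (Taf4asKO over control, on the log2(value + 1) scale) of each deacetylase with its 95% confidence interval by limma, coloured by class, with dotted lines at the 1.3-fold limit. The interval of Hdac11 lies wholly below 0 and that of Hdac9 wholly above 0 and much wider (0.063 to 2.33), and the other 8 span 0.

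**Figure D3:**
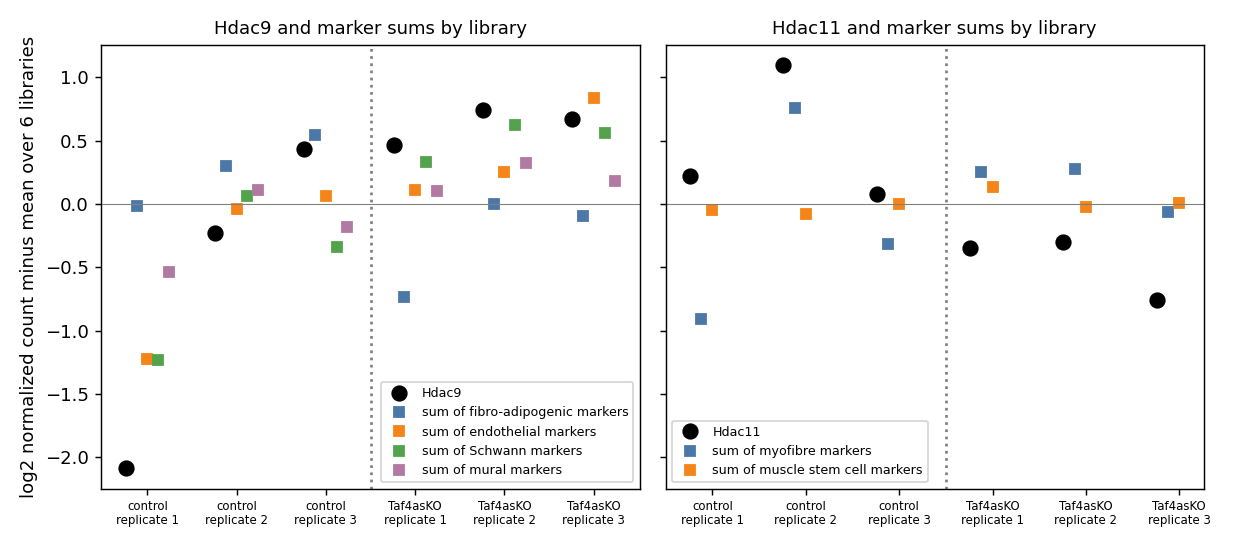
Log2 normalized count of Hdac9 (left) and Hdac11 (right) in each library minus the mean over the 6 libraries. Marker sums are centred in the same way: fibro-adipogenic, endothelial, Schwann and mural on the left, myofibre and MuSC on the right. Control replicate 1 is lowest for Hdac9 and for the endothelial, Schwann and mural sums, whereas the fibro-adipogenic sum is lowest in Taf4asKO replicate 1. Control replicate 2 is highest for Hdac11 and for the myofibre sum, and lowest for the MuSC sum.

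The genes whose profile over the 6 libraries was nearest to that of Hdac11, by mean absolute difference of centred log2 values among the 10585 genes averaging 50 or more, were Srl (0.0856), Gfra1 (0.0936) and Anln (0.107). Srl, which encodes sarcalumenin, a calcium-binding protein of the sarcoplasmic reticulum, had 413, 765 and 358 normalized counts in controls and 316, 268 and 228 in Taf4asKO. Gfra1, a co-receptor of the ligand GDNF, had 963, 1454 and 886 in controls and 561, 612 and 432 in Taf4asKO, and Anln, the cytokinesis scaffold anillin, had 121, 231 and 137 and then 96, 85 and 68. All 3 shared with Hdac11 the high value in control replicate 2, and the Taf4asKO values lay below all controls. They were chosen by the same values, so their lower level in Taf4asKO carries no test.

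Levels of different members were compared per kilobase of the union of exons (GENCODE M21). In controls, Hdac2 was highest at 233 ± 32.3 normalized counts per kilobase (SD, n = 3), followed by Hdac4 at 162 ± 18.8, Hdac1 at 122 ± 17.5, Hdac3 at 111 ± 9.09 and Hdac11 at 108 ± 44.4. Below these were Hdac5 at 85.6 ± 15.9, Hdac6 at 48.1 ± 4.81, Hdac7 at 43.4 ± 7.11, Hdac8 at 14.8 ± 0.726 and Hdac9 at 1.89 (0.546 to 3.14 over the 3 libraries). The control ranges separated Hdac2 from Hdac4, Hdac4 from Hdac1, Hdac5 from Hdac6, Hdac7 from Hdac8 and Hdac8 from Hdac9, whereas Hdac1 and Hdac3, Hdac3 and Hdac11, Hdac11 and Hdac5, and Hdac6 and Hdac7 overlapped. In Taf4asKO 8 of the 10 members held the same place, and Hdac11 (54.3 ± 9.06 per kilobase) and Hdac5 (82.7 ± 6.29) exchanged places, with no overlap between them. With the longest transcript in place of the exon union, 5 of 10 members kept their place in controls, and the ranges of Hdac2 (278 to 367) and Hdac4 (274 to 343 normalized counts per kilobase) overlapped.

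Class I genes made up 53.4%, 51.7% and 50.05% of the summed per-kilobase level of the 10 members in controls and 58.4%, 59.6% and 59.4% in Taf4asKO. The shares did not overlap, and they are given without a test since the members were chosen together. The class IV share was 9.51%, 15.5% and 9.21% in controls and 6.20%, 6.97% and 5.12% in Taf4asKO. Class IIa took 31.6% ± 3.06 and 29.6% ± 0.619 (SD, n = 3) and class IIb 5.23% ± 0.969 and 5.17% ± 0.557, both overlapping. Among the 9 members other than Hdac11, class I held 55.1% to 61.2% in controls and 62.3% to 64.1% in Taf4asKO, a narrower gap. The summed class I level itself was 481 ± 51.3 normalized counts per kilobase in controls and 526 ± 21.7 in Taf4asKO, and that of all 10 members 930 ± 86.3 and 889 ± 46.1.

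**Figure D4:**
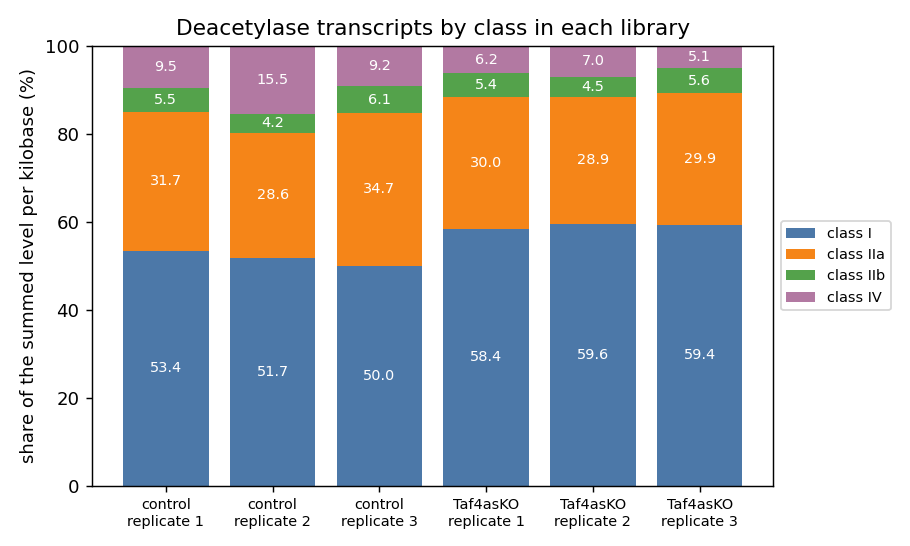
Share of each deacetylase class in the summed level per kilobase of the 10 members, in percent, for each library. The class I share is 50.05% to 53.4% in the 3 controls and 58.4% to 59.6% in the 3 Taf4asKO libraries, and the class IV share is lower in each Taf4asKO library than in each control.

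The proteins with which the deacetylases work were followed in 11 lists of 98 genes, of which 97 were tested and 6 (6.19%) passed by limma, 4 lower and 2 higher in Taf4asKO, beside 12.6% of all genes tested. The median log2 fold change over the lists was -0.023. With replicate number as a block 10 passed, 6 lower and 4 higher, beside 18.1% of all genes. An unadjusted p under 0.05, counted for the lists, was reached by 28.8% of all genes. Leaving out Taf4asKO replicate 1, 2 or 3 reduced the count to 1, and leaving out control replicate 1 to 3.

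Of the Hdac1 and Hdac2 complexes, the NuRD list, which couples deacetylation to chromatin remodelling, had 2 of 10 genes lower and none higher, and a median log2 fold change of -0.27. An unadjusted p under 0.05 was reached by 5 of the 10, among them Mbd2, the alternative methyl-CpG-binding subunit, which had a positive log2 fold change of 0.23 (1120, 1091 and 1083 normalized counts in controls and 1298, 1303 and 1272 in Taf4asKO, without overlap) and did not pass. Mbd3, the methyl-CpG-binding-domain subunit, had 740, 816 and 670 normalized counts in controls and 512, 527 and 551 in Taf4asKO (log2 fold change -0.48, SE 0.11, adjusted p = 0.0188, limma). Mta1, a scaffold that activates the deacetylase, had 2211, 2490 and 2117 and then 1838, 1733 and 1624 (log2 fold change -0.39, adjusted p = 0.0299, limma). For both genes each Taf4asKO value was below each control. Neither passed once GC content and length were added, with or without the block: the log2 fold changes became -0.31 for Mbd3 and -0.30 for Mta1, short of 1.3-fold, with adjusted p = 0.102 and 0.0636 by limma without the block and 0.0685 and 0.0302 with it. Mbd3 also did not pass without any 1 Taf4asKO library (adjusted p = 0.0667 to 0.0879), nor Mta1 without any 1 Taf4asKO library (adjusted p = 0.0564 to 0.142) or control replicate 1 (adjusted p = 0.0579), and without control replicate 2 the log2 fold change of Mta1 (-0.32) fell short of 1.3-fold. The remodelling ATPase gene Chd3 (664, 1095 and 780 against 554, 702 and 559) passed in 3 of 17 settings, with the block alone (adjusted p = 0.0124, limma), with the block and GC content and length, and without control replicate 1, and otherwise did not (adjusted p = 0.118 without the block).
In the Sin3 list 1 of 17 genes passed and 5 had an unadjusted p under 0.05. It was Arid4b, a chromatin-binding subunit, which was higher in Taf4asKO with 1602 ± 63.7 and 2318 ± 75.9 normalized counts (SD, n = 3; log2 fold change 0.53, adjusted p = 0.0042, limma) and passed in 17 of 17 settings. The Sin3 subunit gene Sap18 (287, 310 and 259 against 350, 381 and 396) had adjusted p = 0.0602 by limma and passed in 3 of 17 settings, with the block (adjusted p = 0.0444), with a mean of at least 20 and without control replicate 2. The CoREST list, which pairs deacetylation with histone demethylation, had 0 of 10 by limma on log2 values, 0 by limma-voom and 0 at an unadjusted p under 0.05. Its smallest p belonged to Gse1 (log2 fold change -0.24, adjusted p = 0.214, limma). The MiDAC list had 0 of 3 by both fits with 1 at an unadjusted p under 0.05, the scaffold gene Mideas (log2 fold change -0.22, adjusted p = 0.151, limma).

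Of the NCoR list, which holds partners of Hdac3, 4 genes were counted, and 0 passed by limma on log2 values, 0 by limma-voom and 0 at an unadjusted p under 0.05. The smallest p belonged to Tbl1xr1, which encodes an exchange factor that links the corepressor to its degradation. It had 1059, 1198 and 868 normalized counts in controls and 865, 956 and 896 in Taf4asKO. The groups overlapped through control replicate 3, and the log2 fold change was -0.19 (SE 0.13, 95% confidence interval -0.47 to 0.089, adjusted p = 0.351, limma).

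Among the targets and regulators of class IIa, 3 of 4 MEF2 genes were tested, Mef2b not being analysed here, and 0 passed by limma on log2 values and 0 by limma-voom, with 1 at an unadjusted p under 0.05. That was Mef2c, with 219, 473 and 325 normalized counts in controls and 471, 536 and 479 in Taf4asKO. The groups overlapped by the value of control replicate 2, and control replicate 1 was again the lowest library. The log2 fold change was 0.61 (SE 0.23), with adjusted p = 0.109 by limma without the block and 0.0199 with it. It was 0.33 without control replicate 1 (adjusted p = 0.259) and 0.89 without control replicate 2 (adjusted p = 0.0112, limma), the other setting in which it passed. Of the 17 kinases that phosphorylate class IIa proteins or belong to their families, 1 passed. Prkd1, a protein kinase D, had 206, 148 and 202 normalized counts in controls and 107, 130 and 89 in Taf4asKO, without overlap (log2 fold change -0.77, SE 0.20, adjusted p = 0.0307, limma), and it lost its call without control replicate 1 or 3 or any 1 Taf4asKO library (adjusted p = 0.0504 to 0.135). The 14-3-3 list had 0 of 7 by both fits and 0 at an unadjusted p under 0.05, the smallest p being that of Ywhaq (log2 fold change 0.23, adjusted p = 0.290, limma).

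Sirtuins, which deacetylate by an NAD-dependent mechanism, had 0 of 7 by limma on log2 values and 0 by limma-voom, with 2 at an unadjusted p under 0.05. The smallest p belonged to Sirt7, a nucleolar sirtuin, with 152 ± 10.7 normalized counts in controls and 194 ± 7.57 in Taf4asKO (SD, n = 3; log2 fold change 0.35, adjusted p = 0.130, limma). Of 10 histone acetyltransferases, which place the mark that deacetylases remove, 1 passed and 2 had an unadjusted p under 0.05. Kat5, the catalytic subunit of the TIP60 complex, had 415 ± 39.8 and 297 ± 12.7 normalized counts (log2 fold change -0.48, adjusted p = 0.0276, limma) and did not pass without control replicate 1 or without any 1 Taf4asKO library (adjusted p = 0.0702 to 0.128). Kat2a (777, 910 and 718 against 560, 646 and 623) had adjusted p = 0.0573 by limma and passed in 5 of 17 settings: with the block (adjusted p = 0.0240), under upper-quartile and total-count scaling, with a mean of at least 20 and without control replicate 3. Of 9 bromodomain genes, whose products read acetylated histones, Brd2 passed, with 6113, 5518 and 5755 normalized counts in controls and 9761, 7476 and 6990 in Taf4asKO. Its log2 fold change was 0.46 (SE 0.13, adjusted p = 0.0403, limma), and it did not pass under upper-quartile or total-count scaling (adjusted p = 0.0623 and 0.0858) or without any 1 of the 6 libraries. Arid4b, Kat5 and Brd2 share exonic bases with genes on the opposite strand.

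**Figure D5:**
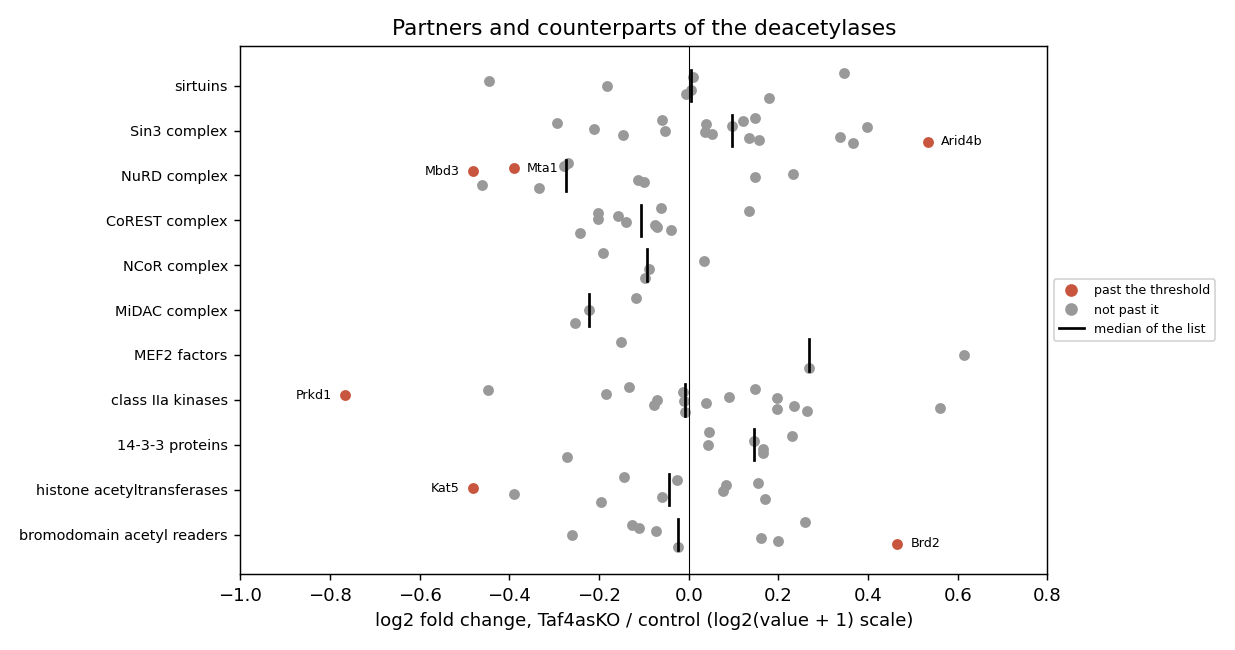
Log2 fold change (Taf4asKO over control, log2(value + 1) scale) of each tested gene of the 11 lists of partners and counterparts, 1 list per line, with a bar at the list's median. Genes past the threshold are filled in red and named, 4 to the left of 0 and 2 to the right.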

How the data were processed

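Freshly isolated MuSCs were profiled by total RNA-seq (SMARTer Stranded Pico kit) in 3 control and 3 Taf4asKO libraries, grouped by the genotype label. Per the labels and the study's methods, reads were trimmed with Trimmomatic 0.39, aligned to mm10 with STAR 2.6.0c, counted over exons with featureCounts 1.6.0, without reads that mapped to several places or overlapped several genes, and normalized with DESeq2 1.14.1. The deposited values are a score, not raw reads: the authors' counts were scaled by library size factors and then rounded to whole numbers, which was inferred from the values (9, 7 and 4 of the whole numbers up to 60 are unused in control 1, control 2 and Taf4asKO 2). They are called normalized counts, and intervals that need the raw depth are not given. Rounding and the unknown strand setting of counting add uncertainty to low and to overlapping genes.

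Genes with a mean of at least 5 entered a limma 3.58.1 fit under R 4.3.3 (lmFit, eBayes with trend, two-sided, no covariate) on log2(value + 1), which understates changes of low genes, with Benjamini-Hochberg adjustment over 18562 genes. The threshold was adjusted p under 0.05 and at least 1.3-fold, as in the study's methods. Ratios of members were compared with an exact permutation test in scipy 1.17.1. The test code was checked on simulated data. Exon lengths, GC content and overlaps came from GENCODE M21, which held 99.8% of the gene identifiers and the same span for 7 of the 10 members.

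Named genes were the members, Taf4, up to 4 genes per list that passed (or the gene with the smallest p), and the 3 nearest profiles to a member that passed (mean of at least 50, no Gm or Rik names). Chd3, Sap18 and Kat2a, for calls that the block changed, Mbd2 and Hdac10 were added after their values were seen. A gene of the partner lists is not reported here and was left out of their counts. The members and lists were chosen with earlier results of these data known.

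Replicate numbers come from the sample titles, which do not say what a number shares. After subtracting group means, control and Taf4asKO libraries of the same number correlated at 0.126 to 0.235 and those of different numbers at -0.149 to 0.0141, so fits with the number as a block are given where they change a call of a member, a partner gene or a marker. At most 3.52% of values were identical between 2 libraries. The alternatives were limma-voom, upper-quartile and total-count scaling, no filter or a mean of at least 20, a pseudocount of 0.1, no fold limit, the block, GC content and length (splines with 5 degrees of freedom) with and without the block, and leaving out each library.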

Additional observations from a re-analysis of the deposited data

How the results depend on the processing

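Hdac11 stayed lower and Hdac9 higher in Taf4asKO under all 17 settings, but their calls did not hold under all of them, as given above with the libraries concerned. The number of genes past the threshold, 2347 over all genes, was 956 to 3096 when 1 library was left out, with the lowest counts (1249, 980 and 956) without Taf4asKO replicates 1, 2 and 3; that of the members, 1, was 0 to 1 and that of the partner genes, 6, was 1 to 8. With the replicate block the counts were 3355, 2 and 10, and apart from Hdac9 the block changed no call among the members. Among differences that were not called, the sign turned for Hdac8 with upper-quartile scaling (-0.018), for Hdac2 (-0.035), Hdac5 (0.056) and Hdac8 (-0.13) with GC content and length, with and without the block, and in the leave-one-out ranges of Hdac1 (-0.00019 to 0.20), Hdac5 (-0.16 to 0.10), Hdac6 (-0.15 to 0.041), Hdac8 (-0.14 to 0.14) and the log2 ratios of Hdac1 to Hdac2 (-0.054 to 0.10) and Hdac4 to Hdac5 (-0.40 to 0.027); the cause was not tested. With the longest transcript, 5 of 10 members kept their place in the order of levels. Values of 8 to 46 normalized counts limit the precision for Hdac9 in controls.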

Other observations

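Hdac10, the other class IIb gene and a polyamine deacetylase, was not among the 10 genes compared and was looked at after its values were seen. It had 304, 360 and 313 normalized counts in controls and 248, 259 and 229 in Taf4asKO, so every Taf4asKO library lay below every control, as in 16.4% of all genes tested. The means were 326 ± 30.1 and 245 ± 15.2 (SD, n = 3), with a log2 fold change of -0.41 (SE 0.13, adjusted p = 0.0622, limma). It passed the threshold in 3 of 17 settings, with the replicate block (adjusted p = 0.0395, limma) and under upper-quartile (0.0313) and total-count scaling (0.0434).

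The genes with profiles nearest to that of Hdac9 were also looked at after its values were seen. They were Arhgef16 (mean absolute difference of centred log2 values 0.103), Mgp (0.143) and Samd5 (0.166), and none of these 3 passed the threshold by limma without the block. Mgp encodes matrix Gla protein, an inhibitor of mineralisation made by vascular and connective tissue cells.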
